A study of Mus musculus with 10 samples.

Results

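The 10 genes described here encode core parts of the insulin-like growth factor (IGF) pathway: the ligand gene Igf1, the receptor genes Igf1r and Insr, the docking protein genes Irs1 and Irs2, and the genes of 5 secreted binding proteins, Igfbp2, Igfbp3, Igfbp4, Igfbp5 and Igfbp6. They were matched by gene name. All 10 were found in both deposited tables, among 23283 named genes and joined loci in the 2.5-month table and 54427 named genes in the 3-month table. The study sequenced RNA of mouse somatosensory cortex after conditional knockout (cKO) of Nsd1, a gene for a histone methyltransferase, and by its title asks about the establishment and maintenance of neuronal identities. Its relevance to growth signalling is that loss of NSD1 function in people causes Sotos syndrome, an overgrowth disorder.

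IGF1 and IGF2 are secreted peptides that activate the receptor tyrosine kinase IGF1R, while insulin acts mainly through the related receptor INSR. Most IGF outside cells is held by binding proteins, which lengthen its life and limit or direct its access to the receptor. An active receptor phosphorylates IRS docking proteins, which recruit PI3 kinase and so engage AKT and mTOR, and it also engages RAS and the MAP kinases through SHC and GRB2. In adult cortex Igf1 is made by some neurons and by microglia and vascular cells, and Igf2 is mostly made by meninges, choroid plexus and vessels.

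The Nex model, named for the Neurod6 (Nex) gene whose Cre driver acts in young postmitotic excitatory neurons, was sampled at 2.5 months. It had 3 control libraries (Nex_Ctrl, 2 labelled Nsd1fl/+ and 1, replicate 3, labelled Nsd1fl/fl) and 3 libraries labelled Nsd1Nex-cKO (Nex_cKO). The Camk2a model, whose driver acts in excitatory neurons later in life, was sampled at 3 months with 2 controls (Camk2a_Ctrl, both Nsd1fl/+) and 2 libraries labelled Nsd1Camk2a-cKO (Camk2a_cKO). Whether any control carried Cre, and whether each library came from its own mouse, is not given in the labels, so the p-values measure only the spread between these libraries. Neither driver acts in glia, vessels or meninges, so the libraries mix targeted neurons with other cells. In such tissue RNA, fewer cells of a type and less RNA per cell cannot be told apart.

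Values are FPKM, fragments per kilobase of transcript scaled to the mapped fragments of the library, which are comparable between genes of one library because they are scaled to length. Changes are cKO minus control on log2(FPKM + 1), tested with limma across 12528 genes of the Nex table and 12919 of the Camk2a table, with Benjamini-Hochberg adjusted p under 0.05 as the threshold. The pseudocount makes the log2 change of a gene near 1 FPKM smaller than the ratio of its means. Recovered reads came to 16901717 to 20074933 per Camk2a library, while the depth of the Nex libraries is unknown. Markers of excitatory neurons were present throughout, with none of 10 at 0. The targeted gene could be read alone only in the Camk2a model, where Nsd1 had 5.61 and 8.87 FPKM in controls against 4.31 and 4.99 FPKM in cKO libraries, with a log2 change of -0.52 (SE 0.20, adjusted p = 0.685). In the Nex table Nsd1 was joined with its neighbour Prelid1. The joined row held 125.1 to 141.4 FPKM in controls against 91.0 to 118.1 FPKM in cKO libraries. The log2 change of this row, -0.34, did not pass (adjusted p = 0.0863) except without Nex_cKO replicate 2 (-0.43, adjusted p = 0.0301). The share of Nsd1 in the row is not known, so its change cannot be read as that of Nsd1. Nex_cKO replicate 3 stood apart: it was the only Nex library with the Y-linked gene Ddx3y above 0, and 41.6% of its FPKM lay in rows without a gene name, against at most 19.4% in the others. Results that rest on it are given with and without it.

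None of the 10 genes passed the threshold in either model. In the Nex model limma called 0 of 10 members, where 8.53% of all genes tested were called, and 2 members, Igf1 and Igf1r, had an unadjusted p under 0.05, as had 23.5% of all genes. The member changes ran from -0.42 for Igfbp2 to 0.35 for Igf1, with a median of 0.00 beside -0.04 over all genes. In the Camk2a libraries 0 of 10 members were called, and no gene of the table was (0.0%). There 1 member, Irs2, had an unadjusted p under 0.05, beside 6.96% of all genes. Limma's voom on the recovered Camk2a reads called 1 gene of the table and 0 members. The 95% confidence intervals limit how large a change could have gone unseen. On the log2(FPKM + 1) scale they lay within 1 unit of 0 for 9 Nex values, the exception being Igfbp2. They did so for all 10 Camk2a values. For a gene near 1 FPKM, such as Igf1, the same limits allow a larger ratio of means. The Nex interval of Igf1r is that of its tested row alone.

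**Figure D1:**
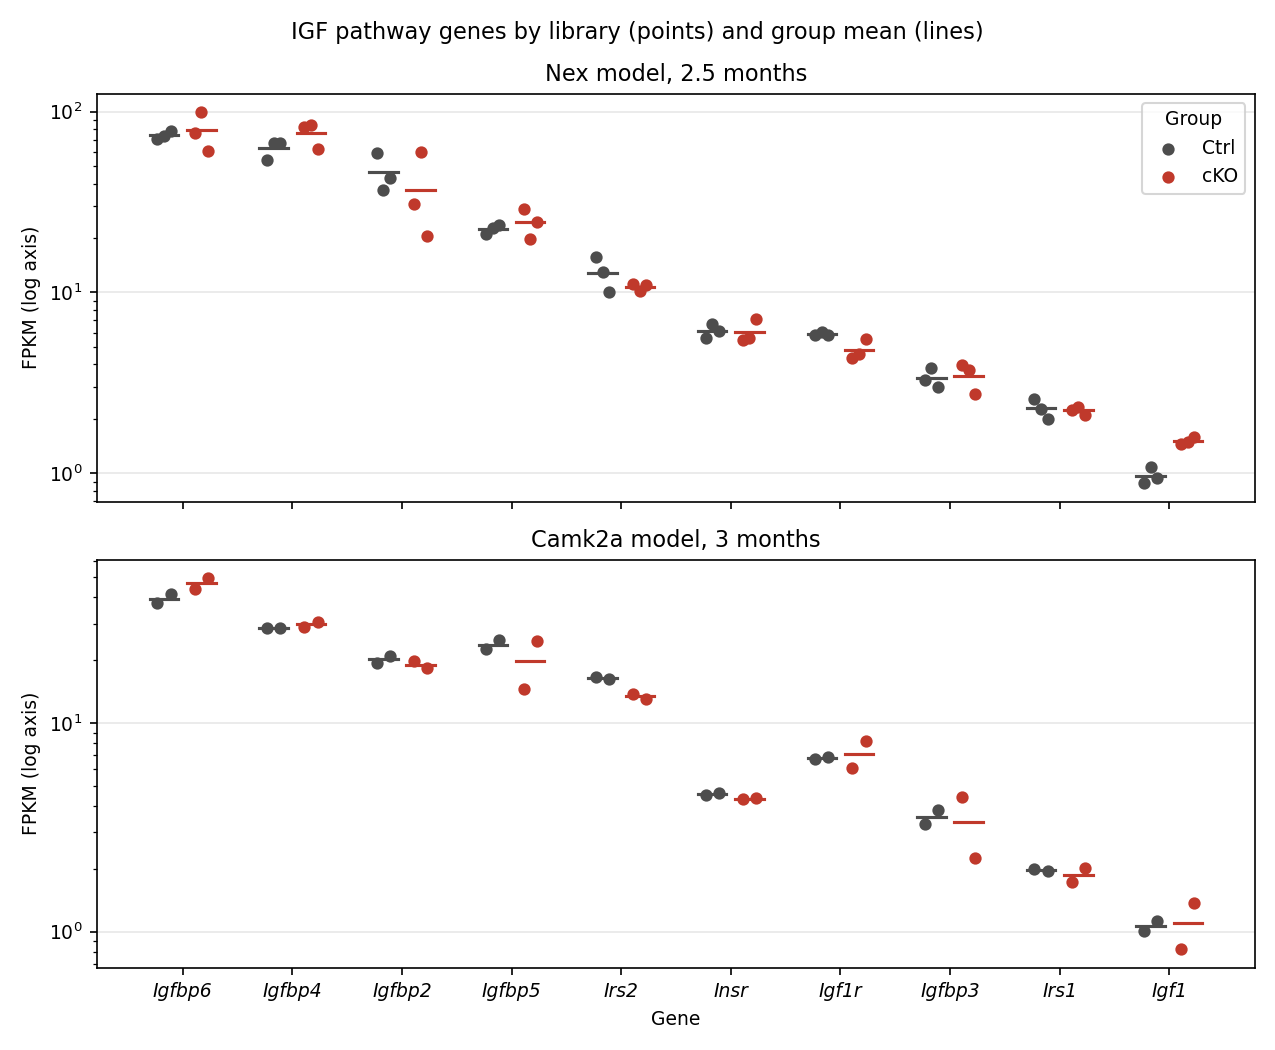
FPKM of the 10 IGF pathway genes in each library (points; logarithmic axis) with group means (lines), for the Nex model above and the Camk2a model below. Controls and cKO libraries interleave for most genes; in the Nex panel the Igf1 points of the cKO group all lie above those of the controls, and the Igf1r points all lie below.

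In control cortex 4 of the 5 binding proteins were the most abundant of these transcripts and the ligand Igf1 the least. In Nex controls the mean level ran from 74.2 FPKM for Igfbp6 through 62.7 for Igfbp4, 46.3 for Igfbp2, 22.4 for Igfbp5, 12.9 for Irs2, 6.15 for Insr, 5.89 for Igf1r, 3.37 for Igfbp3 and 2.28 for Irs1 to 0.971 for Igf1. In that order Igfbp4 and Igfbp2 overlapped between libraries, and so did Insr and Igf1r. Every other pair of neighbours was separate in the 3 control libraries. Igf1r stands in this order by the highest of its 3 Nex rows. The sum of those rows was 7.46 to 8.75 FPKM in Nex controls, above Insr at 5.59 to 6.73 FPKM. The order and overlap of Insr and Igf1r in the Nex model thus depend on the rows used. The Camk2a controls gave nearly the same order, again from Igfbp6 (39.5 FPKM) to Igf1 (1.06 FPKM), with Igfbp5 ahead of Igfbp2 and Igf1r ahead of Insr. No neighbours overlapped there, between 2 libraries each. The tables were made separately, so a level in one is not compared with a level in the other.

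Igf1, the main growth-promoting ligand of the pathway, lies at chr10:87858265-87937042 on the plus strand of GRCm38 (positions here are those of the 3-month table). In the Nex controls it had 0.882, 1.09 and 0.943 FPKM, and in the Nex cKO libraries 1.45, 1.48 and 1.59 FPKM. Every cKO value lay above every control value, which was so for 11.5% of all genes tested. The means were 0.971 ± 0.106 and 1.51 ± 0.069 FPKM (SD, n = 3 each), a ratio of 1.55. The log2 change was 0.35 (SE 0.11, 95% interval 0.10 to 0.60), and limma's adjusted p of 0.0949 missed the threshold (unadjusted p = 0.0121). With a pseudocount of 0.1 the change was 0.59 (SE 0.19, adjusted p = 0.0997), and after quantile normalization it was 0.20 (SE 0.11, adjusted p = 0.344). Igf1 ranked 1598 of the 12528 genes by p. Most of its control values lay under the filter of FPKM 1 and all its cKO values lay above it. Its place among the genes tested therefore rested on the cKO group. With no filter on low values the change of 0.35 did not pass either (SE 0.09, adjusted p = 0.0592). The change of Igf1 stayed positive with each library left out and under every other setting that kept the gene. It passed only in the fit without an intensity trend (adjusted p = 0.0346).

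Igf1 in the Camk2a model had 1.004 and 1.12 FPKM in controls against 0.822 and 1.37 FPKM in cKO libraries. The 2 cKO values stood on either side of the controls, and the log2 change was 0.01 (95% interval -0.45 to 0.47). These values rest on 145 to 228 reads per library, a counting error of at most 8.30%, which is less than the 35.3% coefficient of variation between the cKO libraries. The change of Igf1 in the Nex model minus that in the Camk2a model was 0.34 (SE 0.19, adjusted p = 0.477), so a difference between the models was not shown.

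Microglia are among the cells that make Igf1. The summed level of 11 of the 12 listed microglial markers (those on rows of their own) was 294, 239 and 262 FPKM in Nex controls and 333, 292 and 305 FPKM in the cKO libraries, and 2 of the 12 markers rose. Igf1 and these markers were therefore both higher on average in the cKO group, although the control with the highest microglial sum had the lowest Igf1. Endothelial markers, 11 of 12 on rows of their own, summed to 147 to 177 FPKM in controls against 113 to 134 FPKM in cKO libraries. None of the microglial or endothelial markers was at 0. The part of either cell type in the Igf1 values was not tested. Camk2a controls had a microglial sum of 165 to 190 FPKM, and Camk2a cKO libraries one of 172 to 189 FPKM.

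The pattern of Igf1 over the 6 Nex libraries was compared on log2(FPKM + 1) with 11419 genes, fewer than the 12528 tested. Among those compared, the 3 genes most like Igf1 were Fcgr2b, Pcsk2 and Slc26a4. Their Pearson correlations were 0.995, 0.992 and 0.989, a description over libraries that share a group difference. Correlations over 0.9 were found for 457 genes. Fcgr2b, an inhibitory Fc receptor of immune cells, had means of 1.13 FPKM (controls) and 2.14 FPKM (cKO), a log2 change of 0.56. Slc26a4, the anion transporter pendrin, had means of 0.671 and 2.70 FPKM (log2 change 1.14). Pcsk2, a prohormone convertase of neurons, had means of 112.6 and 120.7 FPKM (log2 change 0.10). They were chosen for their likeness to Igf1, so these differences are given with no test.

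Igf1r encodes the main receptor for IGF1 and IGF2 (chr7:67952827-68233668, plus strand). In the Nex table it had 3 rows. The row of highest FPKM, used in the test, held 5.85, 6.01 and 5.80 FPKM in controls against 4.35, 4.54 and 5.51 FPKM in cKO libraries. The cKO values were all below the controls, as for 18.9% of all genes, with replicate 3 of the cKO group nearest to them. The log2 change was -0.25 (SE 0.10, 95% interval -0.48 to -0.02), with an unadjusted p of 0.0340 and an adjusted p of 0.171 in limma. Without Nex_cKO replicate 3, the library that stood apart, the change was -0.34 and passed (adjusted p = 0.0468). Over the other settings the adjusted p ran up to 0.960, the value for its rows summed.

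The other rows of Igf1r give another picture of the gene. The second held 1.98, 2.01 and 1.66 FPKM in controls against 1.22, 1.31 and 0.242 FPKM in cKO libraries, again all lower in the cKO group. The third held 0.405, 0.724 and 0 FPKM in controls against 0.970, 2.44 and 3.79 FPKM in cKO libraries, all higher. Neither row passed when each was kept as a feature of its own (adjusted p = 0.153 for the second, and 0.0952 for the third, which enters only without a filter on low values). Summed over the 3 rows, Igf1r had 8.15 ± 0.649 FPKM in controls against 8.13 ± 1.505 FPKM in cKO libraries (SD, n = 3 each). Its log2 change on the summed values was -0.01 (limma, adjusted p = 0.960), so the lower value of the tested row was not seen in the sum. The table gives no positions for its rows, and which part of Igf1r each covers is not known. FPKM is scaled to length, so the sum of such rows need not be the level of the gene.

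**Figure D2:**
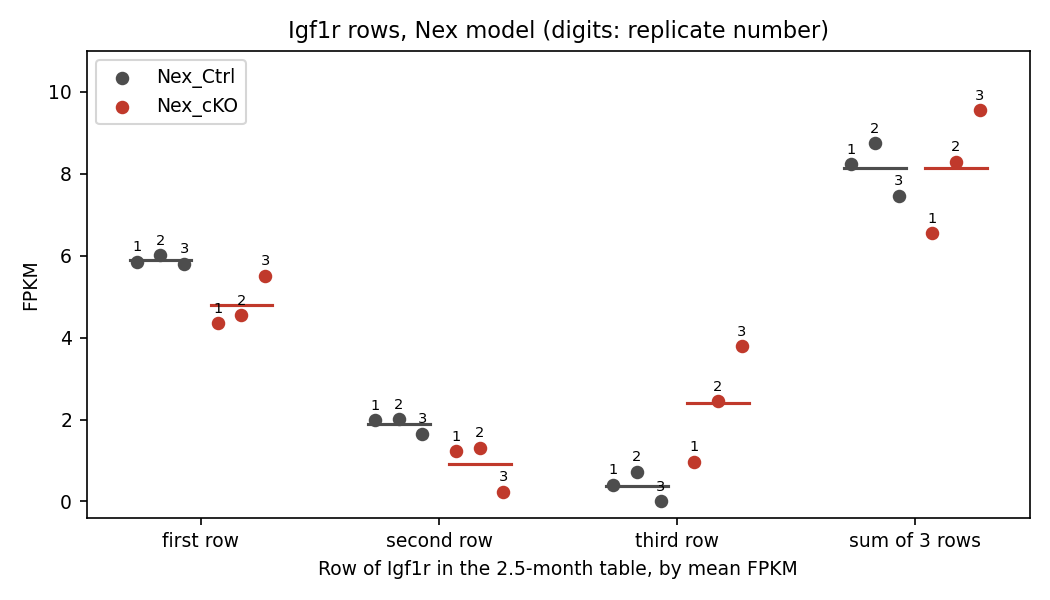
FPKM of the 3 Igf1r rows of the 2.5-month table and of their sum, for the 6 Nex libraries (points, numbered by replicate; lines are group means). The first 2 rows lie lower in the cKO libraries, the third lies higher, and the sums overlap.

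The Camk2a table had a single Igf1r row, with 6.70 and 6.84 FPKM in controls against 6.08 and 8.16 FPKM in cKO libraries. The groups overlapped and the log2 change was 0.05 (95% interval -0.30 to 0.40, adjusted p = 0.969). The difference of the Igf1r change between the models was -0.30 (SE 0.17, adjusted p = 0.473).

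Insr, the insulin receptor gene (chr8:3122061-3279617, minus strand), had 5.59, 6.73 and 6.13 FPKM in Nex controls and 5.48, 5.63 and 7.09 FPKM in Nex cKO libraries. The groups overlapped, and the log2 change of -0.02 had an interval from -0.28 to 0.24. The Camk2a values were 4.49 and 4.603 FPKM in controls against 4.30 and 4.37 FPKM in cKO libraries. They did not overlap, as was the case for 21.1% of all genes in the lower direction, but the log2 change was only -0.06 (adjusted p = 0.947).

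Irs1 and Irs2 encode the docking proteins that link the receptors to PI3 kinase. Irs1 (chr1:82233101-82291416, minus strand) held 2.58, 2.26 and 2.004 FPKM in Nex controls and 2.25, 2.34 and 2.11 FPKM in Nex cKO libraries. Its groups overlapped and its log2 change was -0.02 (95% interval -0.27 to 0.23). The Camk2a libraries held Irs1 at 1.996 and 1.96 FPKM in controls against 1.73 and 2.01 FPKM in cKO libraries, with a log2 change of -0.05.

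Irs2 (chr8:10984681-11008458, minus strand) was the more abundant of the pair. In the Camk2a model it had 16.7 and 16.3 FPKM in controls against 13.8 and 13.05 FPKM in cKO libraries. Both cKO values were below both controls. The means were 16.5 ± 0.250 and 13.4 ± 0.537 FPKM (SD, n = 2 each), a ratio of 0.815 and a log2 change of -0.28 (SE 0.09, 95% interval -0.50 to -0.05). This was the smallest p among the members in that model (0.0244), and the adjusted p was 0.637. In the Nex model Irs2 had 15.6, 12.98 and 10.1 FPKM in controls against 11.1, 10.2 and 10.9 FPKM in cKO libraries. The control libraries spread widely, with a coefficient of variation of 21.4%, and the lowest of them lay below all 3 cKO values. The log2 change of -0.22 was similar in size to that of the Camk2a model, with an adjusted p of 0.366 and an interval from -0.53 to 0.09. The difference between the 2 changes was 0.06 (95% interval -0.36 to 0.47).

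The binding proteins act on the IGFs outside the cell, mostly by holding them away from the receptor. Igfbp2 and Igfbp5 are neighbours on chromosome 1 (chr1:72824503-72852474, plus strand, and chr1:72857932-72874884, minus strand) and point towards each other. Igfbp2, which is abundant in brain fluids, had 59.4, 36.8 and 42.8 FPKM in Nex controls and 30.7, 59.9 and 20.6 FPKM in Nex cKO libraries. Its highest value and its lowest both came from the cKO group, whose coefficient of variation of 55.0% stood against a median of 10.46% over all genes tested. The log2 change of -0.42 therefore had a wide interval, from -1.17 to 0.33 (adjusted p = 0.487). Without Nex_cKO replicate 2 it was -0.83 and passed (adjusted p = 0.0471), and without Nex_cKO replicate 3 it was -0.08. Over all settings run the change stayed negative, with adjusted p from 0.0471 to 0.897.

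At 3 months, in the Camk2a model, Igfbp2 had 19.4 and 21.1 FPKM in controls against 19.8 and 18.3 FPKM in cKO libraries, a log2 change of -0.08. Igfbp5, a binding protein that attaches to extracellular matrix, had 21.1, 22.6 and 23.6 FPKM in Nex controls and 29.1, 19.7 and 24.4 FPKM in Nex cKO libraries (log2 change 0.10, adjusted p = 0.682). At 3 months, Igfbp5 had 22.5 and 25.0 FPKM in controls against 14.6 and 24.8 FPKM in cKO libraries. The log2 change of -0.30 (95% interval -0.86 to 0.26) rested on Camk2a_cKO replicate 1, and it was 0.06 without that library. In the Nex cKO group the library with the highest Igfbp2 had the lowest Igfbp5.

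Igfbp4, an inhibitory binding protein that is cleaved to release IGF (chr11:99041244-99054392, plus strand), had 54.2, 66.7 and 67.1 FPKM in Nex controls and 82.1, 84.5 and 62.3 FPKM in Nex cKO libraries. Replicates 1 and 2 of the cKO group were above all controls, and replicate 3 lay among them. The log2 change was 0.27 (SE 0.13, 95% interval -0.02 to 0.57, adjusted p = 0.249). Without Nex_cKO replicate 3 it was 0.41 and passed (adjusted p = 0.0332), and over the other settings the adjusted p ran up to 0.565. Igfbp4 in the Camk2a model had 28.5 and 28.5 FPKM in controls against 28.8 and 30.6 FPKM in cKO libraries, a log2 change of 0.06 with an interval from -0.16 to 0.28.

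Igfbp6, which binds IGF2 in preference to IGF1 (chr15:102144362-102149511, plus strand), had 70.5, 73.6 and 78.6 FPKM in Nex controls and 76.5, 99.5 and 60.8 FPKM in Nex cKO libraries. The cKO values surrounded those of the controls (log2 change 0.06, adjusted p = 0.847). The Camk2a libraries had Igfbp6 at 37.5 and 41.5 FPKM in controls against 43.9 and 49.5 FPKM in cKO libraries, both higher, as for 16.2% of all genes. The ratio of the means was 1.18 and the log2 change 0.23 (SE 0.11, unadjusted p = 0.0680, adjusted p = 0.737).

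Igfbp3, the main IGF carrier of blood plasma (chr11:7206086-7213923, minus strand), was the least abundant binding protein here. It had 3.29, 3.82 and 3.01 FPKM in Nex controls and 3.96, 3.70 and 2.74 FPKM in Nex cKO libraries (log2 change 0.02). Igfbp3 in the Camk2a model had 3.27 and 3.83 FPKM in controls against 4.42 and 2.26 FPKM in cKO libraries. The 2 cKO libraries lay on either side of the controls, on 119 to 246 reads per library, and the log2 change of -0.11 had an interval from -0.70 to 0.48.

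**Figure D3:**
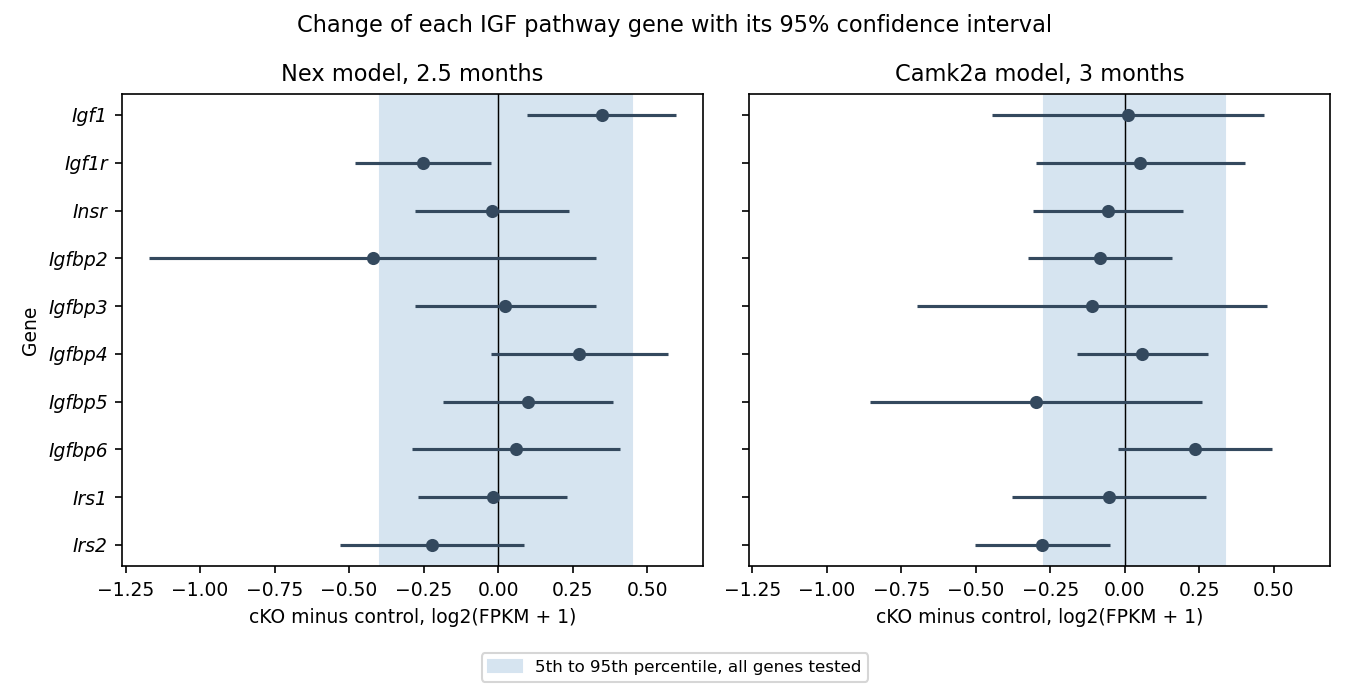
Change of each IGF pathway gene (cKO minus control on log2(FPKM + 1); points) with its 95% confidence interval (lines), for the Nex model (left) and the Camk2a model (right). The shaded band spans the 5th to 95th percentile of the changes of all genes tested; of the 20 points, those of Igfbp2 (Nex) and of Irs2 and Igfbp5 (Camk2a) lie outside it, at -0.42, -0.28 and -0.30.

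Across the 10 genes the groups did not overlap for 2 members in the Nex model (Igf1 higher, Igf1r lower), where 30.4% of all genes tested did not overlap. Camk2a groups did not overlap for 4 members (Igfbp6 and Igfbp4 higher, Irs2 and Insr lower), where 37.3% of all genes did not. Neither count stands out from its background. The signs of the change were the same in both models for 7 members and opposite for 3. The difference of the changes between the models was called for 0 of 10 members by limma, with adjusted p from 0.473 to 0.940 and none with an unadjusted p under 0.05. Over the 10116 genes that both tables allowed to be tested, 0.554% were called and 13.4% had an unadjusted p under 0.05. Sex-linked transcripts differed too: Ddx3y was at 10.98 FPKM or more in all 4 Camk2a libraries, whereas 5 of the 6 Nex libraries had Ddx3y at 0 and Xist, expressed from the inactive X, at 33.6 FPKM or more. Table, age, driver and these sex-linked differences run together between the models and cannot be told apart.

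In a group of 3 libraries, each except the middle lies at an end. The library Nex_cKO replicate 3 did so for most members, which alone does not set it apart. Its value was the lowest of all 6 Nex libraries for Igfbp2, Igfbp3 and Igfbp6, the lowest of its group for Igfbp4 and Irs1, and the highest of its group for Igf1, Igf1r and Insr. Leaving it out brought Igf1r and Igfbp4 past the threshold, as given above, and Igf1 kept a log2 change of 0.33 without passing (adjusted p = 0.145).

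**Figure D4:**
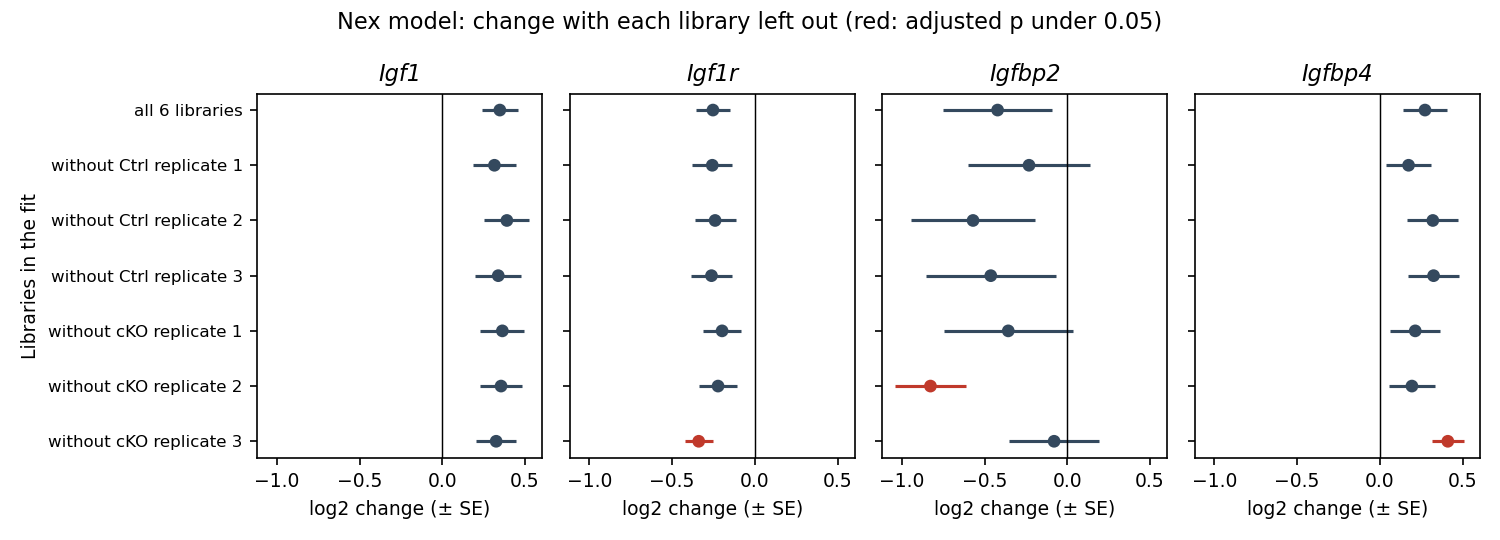
Log2 change (points) and standard error (lines) of Igf1, Igf1r, Igfbp2 and Igfbp4 in the Nex model with all 6 libraries and with each library left out. Red marks adjusted p under 0.05: Igf1r and Igfbp4 without cKO replicate 3, and Igfbp2 without cKO replicate 2.

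Igf2 and other secreted parts of the pathway are listed in a group of 18 further ligands, receptors and binding proteins, of which 5 were abundant enough to test in Nex libraries and 4 in Camk2a libraries. No gene of the group was called in either model by limma. In the Nex model all 5 changes were negative, with a median of -0.24 beside -0.04 over all genes, and 2 had an unadjusted p under 0.05. Igf2, the ligand made mainly outside the neurons (chr7:142650766-142666816, minus strand), had 9.04, 8.46 and 7.02 FPKM in Nex controls and 7.10, 6.37 and 2.82 FPKM in Nex cKO libraries. The groups overlapped slightly, with Nex_cKO replicate 3 well below the rest, and the log2 change was -0.58 (SE 0.25, unadjusted p = 0.0477, adjusted p = 0.207). Without that library it was -0.24 (adjusted p = 0.240, within a range of 0.0802 to 0.424 over all settings).

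Markers of fibroblasts and meninges, 10 of 12 on rows of their own, summed to 17.8 to 19.5 FPKM in Nex controls and to 20.1, 18.4 and 11.3 FPKM in the cKO libraries. Nex_cKO replicate 3 was lowest of the Nex libraries for these markers, for Igf2 and for Igfbp2, but also for 9 of the 12 cell type lists, among them those of excitatory neurons (1463 FPKM against 1594 to 1725) and oligodendrocytes (1174 FPKM against 1330 to 1605). Markers of choroid plexus, all 8 on rows of their own, summed to 1.76 to 1.93 FPKM in controls against 3.07 to 5.66 FPKM in cKO libraries. These sums were low, with Ttr the highest marker and 5 of the 8 under 1 FPKM in every Nex library. Only 1 of the 8 could be tested, and it did not pass (limma, adjusted p = 0.178). None of the 10 fibroblast and meningeal markers was at 0, and 3 (Lum, Col3a1 and Foxc1) stayed under 1 FPKM. The part of either tissue in these values was not tested. Igf2 in the Camk2a model stayed at or under 0.300 FPKM in every library and was not tested.

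The other genes of this group that could be tested in the Nex model also had negative changes there. Igfbp7, a low-affinity relative of the binding proteins found in vessels, had 36.5, 30.5 and 40.9 FPKM in Nex controls and 23.9, 32.0 and 23.7 FPKM in Nex cKO libraries, with a log2 change of -0.43 (SE 0.14, adjusted p = 0.0993). Its change in the Camk2a model was 0.05. The insulin genes Ins1 and Ins2 and the growth hormone gene Gh were listed at 0 in every library. Igf2r, the receptor that clears IGF2, had log2 changes of -0.06 and 0.00 in the Nex and Camk2a models, and the growth hormone receptor gene Ghr had -0.24 in the Nex model and was too low to test in the other. Genes of this group named here beyond Igf2 were chosen after their values were seen.

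Inside the cell the signal passes through adaptors, kinases and transcription factors, which were described in 4 further groups. With the 18 secreted and receptor genes they made 116 genes, of which 101 could be tested in the Nex model. Of these 3 rose and 4 fell, where 4.47% of all genes rose and 4.06% fell. The changes were positive for 35 and negative for 66 of the 101, with a median of -0.06, beside 5071 positive and 7457 negative over all genes and a median of -0.04. Of the same lists 97 genes were tested in the Camk2a model and limma called 0, with 4 at an unadjusted p under 0.05, and the median was -0.05.

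Among 31 receptor adaptors, phosphatases and PI3 kinase genes, 29 were tested in the Nex model, 1 rose and 1 fell, with a median of -0.05. Shc3, a neuronal adaptor that couples receptor tyrosine kinases to RAS, fell in the Nex cKO cortex. It had 23.0, 23.0 and 23.5 FPKM in controls against 18.2, 16.6 and 16.8 FPKM in cKO libraries, with no overlap. The log2 change was -0.41 (SE 0.07, adjusted p = 0.0073), and it passed under all 17 other settings tried. A second, weaker row of Shc3 had a log2 change of -0.43 that did not pass (adjusted p = 0.180). Shc3 in the Camk2a model had 16.7 and 18.0 FPKM in controls against 10.51 and 14.7 FPKM in cKO libraries, with a log2 change of -0.44 that did not pass (SE 0.16, adjusted p = 0.662). The difference between these changes was 0.04 (SE 0.16, adjusted p = 0.936).

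Inpp5d, the SHIP1 phosphatase of blood cells and microglia that removes the PI3 kinase product, rose in the Nex cKO cortex. It had 2.84, 3.00 and 3.09 FPKM in controls against 4.75, 4.90 and 4.18 FPKM in cKO libraries (log2 change 0.49, SE 0.10, adjusted p = 0.0153). The call was lost when any control or Nex_cKO replicate 1 was left out, with adjusted p of 0.0526 to 0.0687. Like Igf1, it was higher in the group with the higher microglial marker sums given above, whose part was not tested. The Inpp5d change in the Camk2a model was 0.15 (adjusted p = 0.873).

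Of 27 genes of AKT, the TSC complex and mTOR, all were tested in the Nex model, 1 rose and 2 fell, with a median of -0.09. Eif4ebp1 and Eif4ebp2 encode translation repressors that mTOR inactivates, and they went in opposite directions. Eif4ebp1 had 1.76, 2.28 and 2.33 FPKM in controls against 2.88, 3.71 and 3.66 FPKM in cKO libraries, a rise of 0.50 on the log2 scale (SE 0.13, adjusted p = 0.0436). Eif4ebp2, the more abundant in brain, had 14.7, 14.3 and 12.9 FPKM in controls against 11.03, 11.1 and 10.7 FPKM in cKO libraries (log2 change -0.33, SE 0.08, adjusted p = 0.0367). Neither call was firm. Leaving out any control library ended both, with adjusted p up to 0.151 for Eif4ebp1 and 0.143 for Eif4ebp2. Each was also lost without other single libraries (Nex_cKO replicate 2 or 3 for Eif4ebp1, and any cKO replicate for Eif4ebp2). Quantile normalization ended both as well (adjusted p = 0.0880 for Eif4ebp1 and 0.0734 for Eif4ebp2), as did no filter on low values for Eif4ebp1 (0.0729) and median ratio rescaling for Eif4ebp2 (0.0710). In Camk2a cortex Eif4ebp1 was too low to test, and Eif4ebp2 had a log2 change of -0.19 (adjusted p = 0.777).

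Ddit4l, an inhibitor of mTOR complex 1 signalling, fell from 17.1, 16.1 and 20.6 FPKM in Nex controls to 12.8, 12.7 and 12.6 FPKM in the cKO libraries. The log2 change was -0.46 (SE 0.09, adjusted p = 0.0189), and it was lost without Nex_Ctrl replicate 1, Nex_Ctrl replicate 3 or Nex_cKO replicate 1 (adjusted p of 0.0565 to 0.0636). The Camk2a libraries had 16.8 and 14.9 FPKM in controls against 10.4 and 11.2 FPKM in the cKO group, again without overlap. That log2 change was -0.51 (SE 0.11), with an unadjusted p of 0.0028 and an adjusted p of 0.471. The difference between the models was 0.05 (SE 0.15, adjusted p = 0.900).

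The list of FOXO factors and FOXO-regulated genes had 20 genes, with Gsk3a and Gsk3b placed among them. FOXO activity itself was not tested. All 20 genes were tested in the Nex model and 1 rose, with a median of -0.04. This was Sgk1, a stress- and glucocorticoid-induced kinase related to AKT. It had 23.2, 42.5 and 23.5 FPKM in controls against 52.0, 45.7 and 51.7 FPKM in cKO libraries, with Nex_Ctrl replicate 2 close to the cKO group. The log2 change of 0.78 (SE 0.20) only just passed, at an adjusted p of 0.0493. It was lost in 13 of 17 other settings, among them the fits without Nex_Ctrl replicate 1 (adjusted p = 0.173), Nex_Ctrl replicate 3 (0.171) or any cKO replicate (0.0575 to 0.140). Sgk1 in the Camk2a model had 26.7 and 25.3 FPKM in controls against 31.4 and 19.6 FPKM in cKO libraries. The difference of its changes between the models was 0.84 (SE 0.33, adjusted p = 0.325).

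Of 20 genes of the RAS and MAP kinase branch, all were tested in the Nex model and 1 fell, with a median of -0.03. The call was a locus that joins Rps6ka2, the gene of a ribosomal S6 kinase downstream of ERK, with Gm1604b, so the reads of the 2 genes cannot be told apart. It had 14.2, 14.2 and 15.0 FPKM in controls against 9.06, 9.69 and 8.58 FPKM in cKO libraries. The log2 change was -0.62 (SE 0.08, adjusted p = 0.0015), and it passed under all 17 other settings. In the Camk2a table Rps6ka2 had a row of its own, with 8.16 and 10.99 FPKM in controls against 8.66 and 10.8 FPKM in cKO libraries (log2 change 0.03, adjusted p = 0.990).

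**Figure D5:**
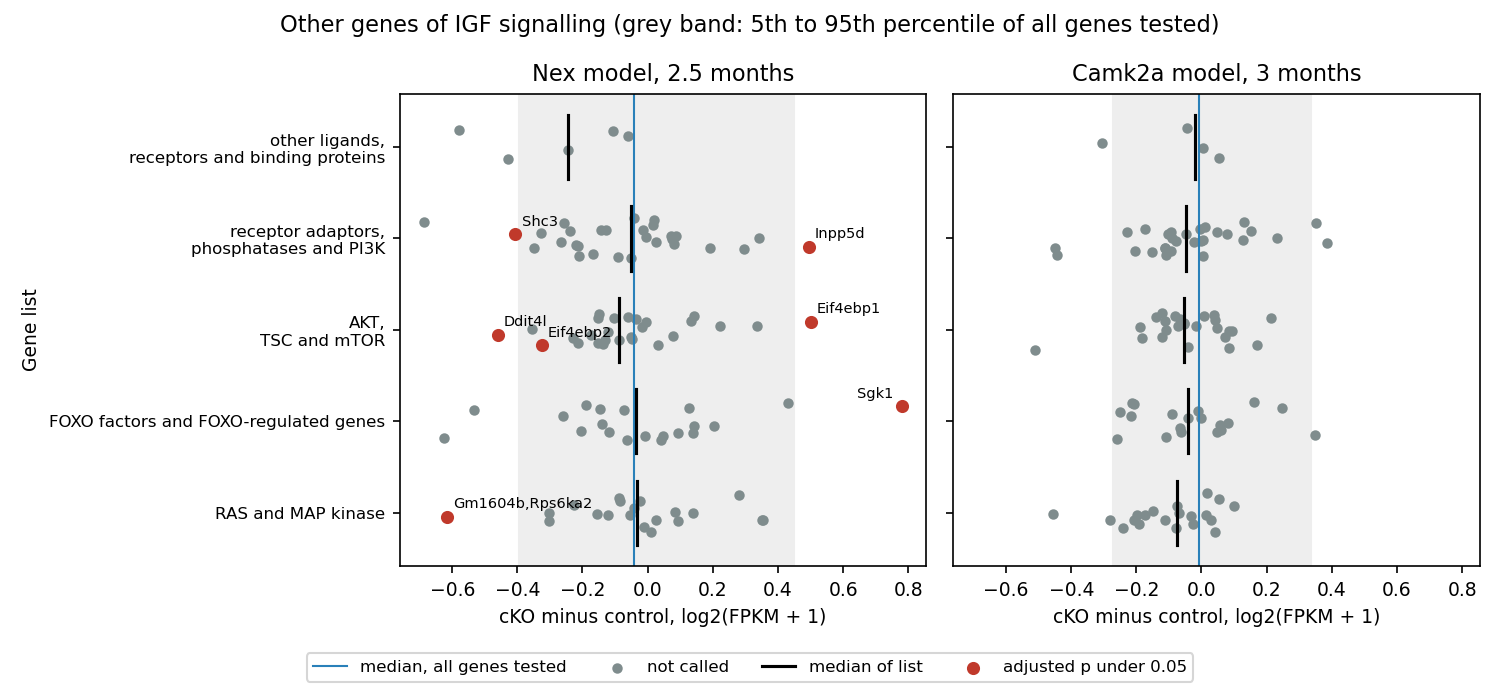
Change of each tested gene of the 5 further lists of IGF signalling genes (points), cKO minus control on log2(FPKM + 1), in the Nex model (left) and the Camk2a model (right). Red points are the 7 genes or loci past the threshold in the Nex model; list medians (black) lie close to the median of all genes (blue) except for the 5 secreted and receptor genes of the Nex model, at -0.24.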

How the data were processed

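The authors deposited FPKM values per gene and library in 2 tables, one for each model. Cufflinks 2.2.1, STAR, DESeq2 and cutadapt stand in the submitters' processing notes, as do the builds GRCm38 and mm10, with no role for any of them. Of the 29610 rows of the 2.5-month table, 4463 carried no gene name and were not tested, and 1115 rows joined several genes. For a name with several rows, only the row with the highest mean FPKM was tested. In the other table the product of FPKM and gene length gave whole reads for 100% of values within 0.1, from which the reads per library were recovered.

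Each table was fitted apart with limma 3.58.1 in R 4.3.3 (eBayes with an intensity trend) on log2(FPKM + 1), keeping genes that reached FPKM 1 in a number of libraries no less than the smaller group's size. P-values are two-sided, with Benjamini-Hochberg adjustment across the genes kept. The difference of changes was fitted over genes named alike in both tables. The fit was tried on simulated data with larger changes than those of the members, in genes more abundant than Igf1. How well it finds smaller changes was not tested. Named genes were all members, Nsd1, Igf2 and every listed pathway gene past the threshold. By the same rule the 3 genes most like the member of smallest p, among those compared, were named. Igfbp7, Igf2r, Ghr, Ins1, Ins2 and Gh were named outside this rule, after their values were seen. Cell types are described by list sums. Members and lists were chosen with earlier results of these data known.

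Alternatives were rescaling by the median ratio, quantile normalization, a filter of FPKM 5 or none, a replicate block, a pseudocount of 0.1, robust moderation, a fit without the trend, voom on the recovered Camk2a reads, and leaving out each library. Summing or keeping all rows of one name was added after seeing the data.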

Additional observations from a re-analysis of the deposited data

How the results depend on the processing

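Of the values of the 10 members under other settings, 150 of 167 for Nex, 129 of 136 for Camk2a and 179 of 186 for the difference between models kept their direction and their side of the threshold. Of the 7 other signalling genes called in the Nex model, Shc3 and the Rps6ka2 locus kept the call in 17 of 17 settings. It was lost for Sgk1 in 13 of 17, for Eif4ebp2 in 9 of 17, for Eif4ebp1 in 9 of 16, for Inpp5d in 4 of 16 and for Ddit4l in 3 of 17. A filter of FPKM 5 removed Igf1, Igfbp3 and Irs1 and so gives no value for them. The count of members called in the Nex model was 1 without an intensity trend (Igf1), and it ranged from 0 to 2 when single libraries were left out. The count of other signalling genes called, 7, was 4 under that filter (0 higher, 4 lower). It ranged from 3 (without Nex_Ctrl replicate 1 or 3) to 12 (without Nex_cKO replicate 2) when single libraries were left out. The count of 7 here came from 102 genes tested in the main Nex fit, against the 101 given above. The counts in the Camk2a model and for the difference were 0 under all alternatives run. With 1 library left in a group, its spread was taken from the other group.

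Over all genes of the Nex model, 560 rose and 509 fell. Rescaling by the median ratio gave 607 and 325, and a filter of FPKM 5 gave 197 and 347. The lowest count of genes that fell was 160, without Nex_Ctrl replicate 1, and the highest was 685, without Nex_cKO replicate 2.

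Small changes turned their sign. Under median ratio rescaling Insr was 0.020 and Irs1 0.014 in the Nex model, and under quantile normalization Igfbp3 was -0.029 for Nex and Igf1 -0.061 for Camk2a. With single libraries left out, the log2 changes in the Nex model ranged from -0.12 to 0.039 for Insr, from -0.056 to 0.15 for Igfbp3, from -0.029 to 0.24 for Igfbp5, from -0.12 to 0.23 for Igfbp6 and from -0.080 to 0.047 for Irs1. In the Camk2a model they ranged from -0.18 to 0.20 for Igf1, from -0.13 to 0.24 for Igf1r, from -0.48 to 0.25 for Igfbp3, from -0.66 to 0.063 for Igfbp5, from -0.12 to 0.016 for Irs1 and from -0.39 to 0.26 for Sgk1. The difference between models ranged from -0.066 to 0.094 for Insr, from -0.74 to 0.0046 for Igfbp2, from -0.23 to 0.50 for Igfbp3, from -0.034 to 0.11 for Irs1 and from -0.10 to 0.19 for Irs2. The cause of these turns was not tested.

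Deviations from the group mean correlated at 0.02, -0.10 and -0.10 between Nex libraries of the same replicate number. In the Camk2a model the value was 0.05, and with 2 libraries per group every pair gives the same size. With so few libraries per group, these values cannot decide whether the numbers mark a pairing. With the replicate number as a block, 0 members were called in either model. In the Nex model 7 other signalling genes were called, but Sgk1 (adjusted p = 0.0565) and Eif4ebp2 (adjusted p = 0.0816) were lost, and over all genes 497 rose and 272 fell. The counting error of Igf1, Igfbp3 and Irs1, the members with the fewest Camk2a reads, was at most 9.17% and below the spread between their cKO libraries. Between the Irs1 controls the coefficient of variation was 1.35%, smaller than their counting error of 5.31% and 5.64%. Insr and Igfbp4, whose Camk2a groups did not overlap, had log2 changes of -0.06 and 0.06 and counting errors of up to 3.15% and 2.15%. The depth of the Nex libraries is unknown.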
